A study of Mus musculus with 15 samples.

Results

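The genes described here encode the acid compartment of the cell: subunits of the proton pump of the lysosome, cathepsins, other hydrolases, membrane proteins of the lysosome and 2 regulators of these genes. The list held 41 genes, chosen by gene symbol with earlier results of these data known. A gene was read through the probe set that carried its symbol alone, and through the one with the highest mean over all arrays where it had several. By this rule 39 of the 41 genes had a probe set, among 22180 genes with one on the array. Atp6v0c had no probe set, and Glb1 had only one shared with Tmppe, so both were left out. The 39 genes were 15 of the pump (5 of its membrane part V0, 8 of its cytosolic part V1 and 2 accessory proteins), 8 cathepsins, 6 membrane proteins, 8 hydrolases and cofactors, and 2 regulators.

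RNA of mouse myeloid cells was hybridised to 15 single-colour arrays, 3 in each of 5 groups, and all mice were of the strain C57Bl/6. MDSC arrays held Ly6C+CD11b+ suppressor cells grown from bone marrow in a culture with G-CSF, IL-13 and GM-CSF. RB and GFW arrays both held wild-type Lin-CD11b+CD34+ spleen cells of mice given G-CSF, where Lin- means sorted to lack CD4, CD8, Ly6G, B220 and Ter119. GFE arrays held such wild-type cells after 3 days of culture in Stemspan with SCF and Flt3 ligand, and GFK arrays held fresh cells from G-CSF-treated mice labelled iNOS knockout. G-CSF was thus given in every group, to the culture for MDSC and to the donor mouse for the other groups, and no age is stated in the labels. All values are log2 signals normalised by the authors. The labels do not say whether the replicates came from separate mice or cultures, so p-values measure the spread between these arrays, which may be technical.

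Lysosomes digest proteins, lipids and sugars taken up from outside or delivered by autophagy, and macrophages and granulocytes carry many of them. The vacuolar ATPase (V-ATPase) pumps protons into the lumen: its V1 part hydrolyses ATP in the cytosol and turns a rotor in the V0 part, which carries protons across the membrane. The low pH activates the cathepsins, which are proteases, and the hydrolases that cut glycolipids, glycoproteins and lipids. Transcription factors of the MITF and TFE family, of which TFEB is the best studied, bind E-boxes in the promoters of many of these genes, the CLEAR element (TCACGTGA with G before it and C after it) and the M-box TCATGTGA among them.

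These letters were sought in promoter windows of 300 bases, 250 before and 50 after the start of the gene, from RefSeq (build GRCm38.p6), on both strands. Of the 39 genes, 32 had a window. Atp6v0d2, Atp6v1b2, Atp6v1c1, Atp6v1g1, Atp6v1h, Ctsb and Ctsh had none. The 8 letters TCACGTGA, the core of the CLEAR element, stood in windows of 7 of these 32 genes (21.9%), against 1.89% of the 11560 genes that were tested and had a window. The shorter E-box CACGTG, which lies inside TCACGTGA, was found for 10 of the 32 genes (31.2%), against 11.0% of those 11560 genes. The full CLEAR element, which holds both, was found for 0 of the 32 genes and for 0.64% of the 11560 genes. The M-box TCATGTGA was found for Ctss, Gla and Tpp1 (9.38%), against 0.908% of the 11560 genes. The element is known from promoters of many of these genes, so a higher share in this list was foreseeable. A match describes the letters of a window and does not show a site that is used. Below are 60 bases around the matches, read on the strand of the gene, with TCACGTGA, TCATGTGA and its reverse complement in capitals. They are shown because the genes that hold them are read side by side with the others below.
Atp6v0d1, chr8:105566035-105566094, minus strand: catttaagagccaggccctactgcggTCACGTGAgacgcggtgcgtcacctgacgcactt
Atp6v0e, chr17:26676366-26676425, plus strand: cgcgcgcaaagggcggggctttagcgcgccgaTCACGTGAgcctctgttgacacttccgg
Atp6v1a, chr16:44139358-44139417, minus strand: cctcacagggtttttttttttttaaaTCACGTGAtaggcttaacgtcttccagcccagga
Ctsa, chr2:164833734-164833793, plus strand: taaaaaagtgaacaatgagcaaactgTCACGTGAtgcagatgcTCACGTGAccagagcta
Ctsd, chr7:142387893-142387952, minus strand: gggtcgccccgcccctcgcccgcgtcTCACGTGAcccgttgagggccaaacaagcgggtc
Mcoln1, chr8:3500447-3500506, plus strand: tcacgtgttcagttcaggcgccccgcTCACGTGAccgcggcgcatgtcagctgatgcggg
Gla, chrX:134601183-134601242, minus strand: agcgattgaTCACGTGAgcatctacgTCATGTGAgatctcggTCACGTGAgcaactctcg
Ctss, chr3:95526756-95526815, plus strand: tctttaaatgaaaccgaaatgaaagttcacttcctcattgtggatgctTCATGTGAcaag
Tpp1, chr7:105752206-105752265, minus strand: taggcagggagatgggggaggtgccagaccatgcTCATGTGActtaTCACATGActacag
For Gpnmb, one of the genes that differed most between groups, the 250 bases before the start hold none of these letters.
Gpnmb, chr6:49036268-49036517, plus strand: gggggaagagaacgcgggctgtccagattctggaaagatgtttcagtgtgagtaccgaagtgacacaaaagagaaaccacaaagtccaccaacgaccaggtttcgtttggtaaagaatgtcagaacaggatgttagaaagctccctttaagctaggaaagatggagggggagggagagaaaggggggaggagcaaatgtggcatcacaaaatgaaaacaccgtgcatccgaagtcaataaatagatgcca

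Several facts of the arrays bear on the comparisons. Nos2 encodes iNOS, and its signal did not drop in the group labelled knockout: it averaged 8.89 ± 0.05 log2 on GFK arrays and 8.28 ± 0.17 log2 on GFW arrays (SD, n = 3 each). Ly6g, whose protein the sort was to remove, averaged 5.80 log2 on MDSC, 6.28 on RB, 4.22 on GFE, 12.08 on GFK and 12.19 on GFW arrays. Cd34, whose protein the sort was to select, averaged 5.92 log2 on RB, 11.28 on GFE, 7.27 on GFK and 7.19 on GFW arrays. The first part of the array titles is shared by GFE, GFK and GFW and differs for MDSC and for RB, so a group effect cannot be told apart from whatever that prefix stands for in any comparison of MDSC or RB with another group. Several comparisons share arrays, GFW arrays above all, and are not independent.

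Across the 5 groups, the lysosomal genes were most often highest in MDSC and most often lowest after culture in SCF and Flt3 ligand. MDSC had the highest group mean for 23 of the 39 genes, and for 18.0% of all 14822 genes tested. GFE had the lowest mean for 25 of the 39 genes, including 7 of 8 cathepsins, 6 of 8 hydrolases and 7 of 15 pump genes, and for 25.4% of all genes. GFE had the highest mean for 0 of the 39 genes, and for 26.1% of all genes. RB had the highest mean for 9 of the 39 genes, and for 16.5% of all genes, and the lowest for 6, and for 22.4% of all genes. The heat map of the genes on the 15 arrays shows these blocks, with GFK and GFW close to each other in most rows. In bulk samples such as these, fewer cells of a type and less RNA of a gene per cell cannot be told apart.

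**Figure D1:**
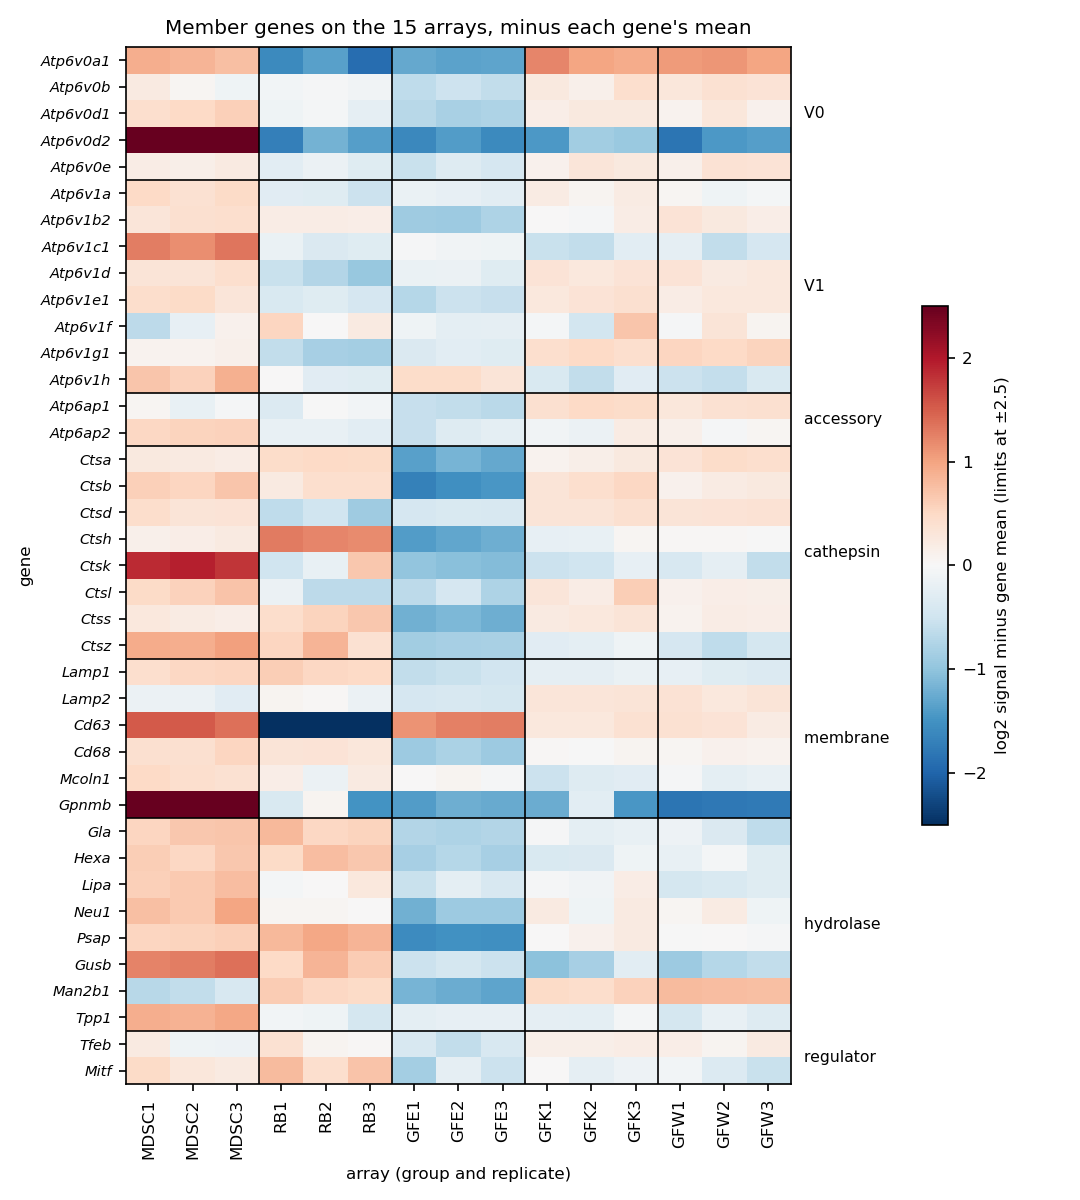
The colour gives the log2 signal of each of the 39 genes (rows, grouped by role) on each of the 15 arrays (columns), minus the mean of the gene over all arrays. MDSC arrays were highest for 23 genes by group mean and GFE arrays lowest for 25.

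The gene of the list with the widest range of group means was Atp6v0d2, an isoform of the pump's d subunit known from osteoclasts and macrophages. It had 10.68, 10.91 and 10.90 log2 on MDSC arrays, 3.53, 4.07 and 3.88 on RB arrays, 3.64, 3.85 and 3.66 on GFE arrays, 3.81, 4.38 and 4.31 on GFK arrays, and 3.43, 3.80 and 3.88 on GFW arrays. The 3 MDSC arrays stood apart, and the other 4 groups overlapped at levels near the bottom of the array. MDSC exceeded GFW by at least 140-fold (7.13 log2, SE 0.17, adjusted p = 6.35e-14). "At least" is used wherever the lower group lay under the 40th percentile of probe sets, where signal and background are hard to separate, and no size is given where both groups lay under it. MDSC exceeded RB by at least 128-fold and GFE by at least 139-fold. The gene passed the filter on low values only through the MDSC arrays, so some difference was built into its being tested. The ubiquitous isoform Atp6v0d1 had 10.46, 10.55 and 10.64 log2 on MDSC arrays against 10.14, 10.33 and 10.16 on GFW arrays, a difference of 0.34 (SE 0.10, adjusted p = 0.00621).

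Gpnmb encodes a glycoprotein of lysosomes and melanosomes. It had 11.99, 11.82 and 11.93 log2 on MDSC arrays, 6.86, 7.32 and 5.74 on RB arrays, 5.84, 6.03 and 5.99 on GFE arrays, 6.00, 6.97 and 5.79 on GFK arrays, and 5.43, 5.46 and 5.48 on GFW arrays. No array of another group came near the MDSC arrays, while RB and GFK arrays were spread widely. MDSC exceeded GFW by at least 87.7-fold (6.46 log2, SE 0.32, adjusted p = 9.77e-11), RB by 38.6-fold and GFE by 62.1-fold. Ctsk, a cysteine protease that cleaves collagen in osteoclasts, had 7.77, 7.85 and 7.68 log2 on MDSC arrays, 5.41, 5.71 and 6.57 on RB arrays, 4.92, 4.87 and 4.82 on GFE arrays, 5.36, 5.41 and 5.69 on GFK arrays, and 5.51, 5.67 and 5.29 on GFW arrays. Here too the MDSC arrays were above all others, with 1 RB array above the other RB arrays. MDSC exceeded GFW by at least 4.85-fold (2.28 log2, adjusted p = 1.31e-07), RB by 3.66-fold (1.87 log2, adjusted p = 1.96e-06) and GFE by at least 7.46-fold (2.90 log2, adjusted p = 1.78e-08).

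**Figure D2:**
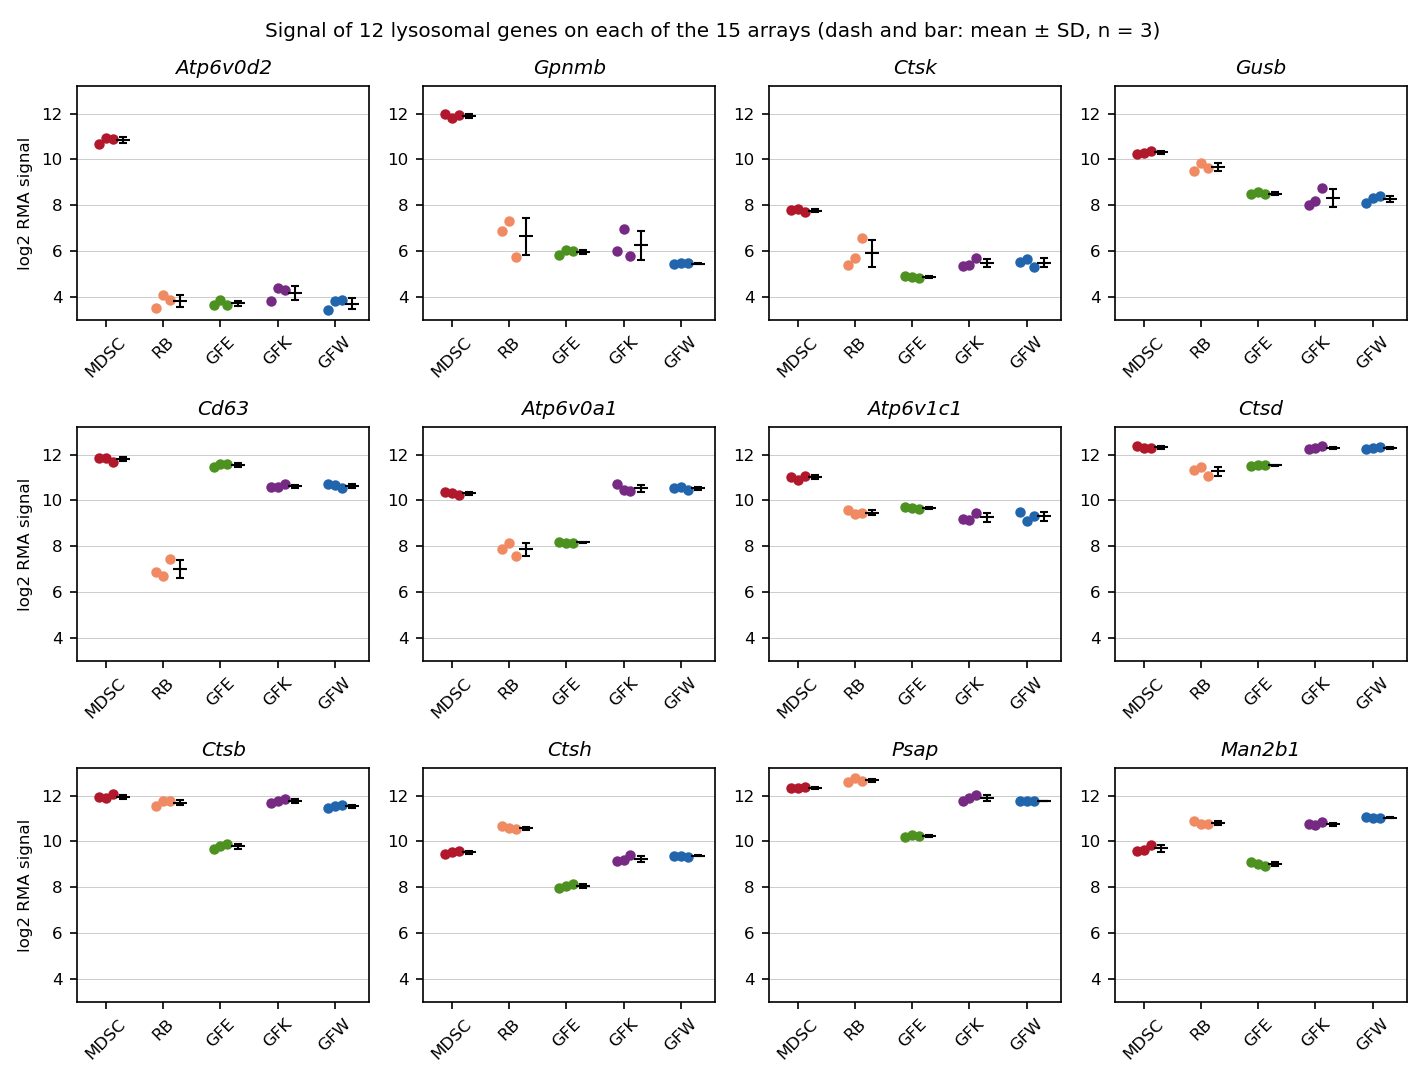
Each point is the log2 signal of a gene on 1 array, by group, and the dash and bar give the mean and SD of 3 arrays. Atp6v0d2, Gpnmb and Ctsk are highest on MDSC arrays, Cd63 is low on RB arrays, Atp6v0a1 is low on RB and GFE arrays, and Ctsb, Ctsh and Psap are lowest on GFE arrays.

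Against GFW, MDSC had more of most hydrolases and membrane proteins, and pump genes went both ways. Of the 39 genes, 23 were higher (59.0%), 5 were lower (12.8%) and 11 did not pass an adjusted p of 0.05, the threshold used throughout. Of all genes tested, 62.2% passed it in this comparison, 32.3% higher and 30.0% lower. When each array was set relative to its own median, the share of higher genes among all that passed was 63.2%, against 51.8% otherwise. The median difference was 0.45 log2 over the 39 genes and -0.08 over all genes, which became 0.04 over all genes relative to the array medians.

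Most hydrolases rose: 7 of 8 were higher in MDSC than in GFW and 1 was lower, with a median of 0.90 log2. Gusb, which removes glucuronic acid from glycosaminoglycans, had 10.25, 10.29 and 10.38 log2 on MDSC arrays against 8.11, 8.30 and 8.40 on GFW arrays, a difference of 2.04 (SE 0.16, adjusted p = 1.8e-08). Its MDSC arrays lay well above its GFW arrays. The peptidase Tpp1 was higher by 1.23, the acid lipase Lipa by 1.04, the alpha-galactosidase Gla by 1.01, the hexosaminidase subunit Hexa by 0.79, the sialidase Neu1 by 0.75 and Psap, the precursor of the saposins that help digest sphingolipids, by 0.57 log2. The exception was Man2b1, the lysosomal alpha-mannosidase, with 9.57, 9.63 and 9.86 log2 on MDSC arrays against 11.05, 11.02 and 11.01 on GFW arrays. All 3 MDSC arrays were below the GFW arrays, and the gene fell by 1.34 log2 (SE 0.10, adjusted p = 1.07e-08).

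Of the 8 cathepsins, 4 were higher in MDSC than in GFW and 0 lower, with a median of 0.29 log2. Beside Ctsk these were Ctsz, a carboxypeptidase, by 1.44, Ctsl by 0.45 and Ctsb by 0.42 log2, the last 2 being broad cysteine proteases. Ctsa (-0.18), Ctsd (0.03), Ctsh (0.15) and Ctss (0.06) did not pass. Of the membrane proteins, Cd63, a tetraspanin of late endosomes, was higher by 1.16, the structural protein Lamp1 by 0.77, the calcium channel Mcoln1 by 0.59 and the macrophage glycoprotein Cd68 by 0.36 log2, whereas Lamp2 fell by 0.51. Ctsl did not pass without MDSC replicate 3 (adjusted p = 0.0633, with a range of 0.00408 to 0.0633 over all alternatives).

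The pump did not move as a block in MDSC against GFW: 6 of its 15 genes were higher, 3 lower and 6 did not pass, with a median of 0.12 log2. After Atp6v0d2 the largest differences were those of V1 genes. Atp6v1c1, which encodes a stalk subunit, had 11.02, 10.91 and 11.07 log2 on MDSC arrays against 9.51, 9.12 and 9.32 on GFW arrays, a difference of 1.69 (SE 0.12, adjusted p = 6.27e-09). Atp6v1h, a subunit needed for activity, was higher by 1.22, the catalytic subunit Atp6v1a by 0.48 and the accessory Atp6ap2, also called the prorenin receptor, by 0.51 log2. The stalk subunit Atp6v1g1 fell by 0.43, the accessory Atp6ap1 by 0.42 and the proteolipid subunit Atp6v0b by 0.28 log2. Atp6v0b did not pass without MDSC replicate 2 (adjusted p = 0.0704), MDSC replicate 3 (0.148), GFW replicate 2 (0.0784) or GFW replicate 3 (0.0683), and its adjusted p ranged from 0.00629 to 0.261 over all alternatives. Atp6v0a1, Atp6v0e, Atp6v1b2, Atp6v1d, Atp6v1e1 and Atp6v1f lay between -0.37 and 0.17 log2 and did not pass.

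Against RB, MDSC had more of most pump genes. 23 of the 39 genes were higher and 5 lower, while 48.1% of all genes tested passed, 27.4% higher and 20.7% lower. The pump accounted for 11 of the 23 higher genes, with 0 lower of 15 and a median of 0.77 log2, against 0.04 for all genes. Pump subunits outside the list, with the chloride and proton exchanger genes Clcn7 and Ostm1, numbered 9, of which 0 were higher and 1 was lower, Tcirg1 (-0.35), with a median of 0.05 log2. Several of these had low signal in all 5 groups. Atp6v0e2, Atp6v1b1 and Atp6v1g3 had group means of 5.04 to 5.94 log2, near the 40th percentile of probe sets. Counts and medians of these 9 genes are thus not on a par with those of the listed pump genes. Atp6v0a1, the membrane subunit of the pump's stator that lines the proton path, had 10.38, 10.32 and 10.24 log2 on MDSC arrays against 7.89, 8.13 and 7.58 on RB arrays, a difference of 2.45 (SE 0.13, adjusted p = 2.45e-10). Those groups were far apart. Atp6v1c1 was higher by 1.54, Atp6v1d by 1.11, Atp6v1h by 0.91, Atp6v1g1 by 0.87, Atp6v1a by 0.81, Atp6v1e1 and Atp6ap2 by 0.77, Atp6v0d1 by 0.63 and Atp6v0e by 0.42 log2. Atp6v0b (0.12), Atp6v1b2 (0.19), Atp6v1f (-0.51) and Atp6ap1 (0.07) did not pass. Without MDSC replicate 3 Atp6v1f passed as lower (-0.69 log2, adjusted p = 0.0467, with a range of 0.0467 to 0.354 over all alternatives).

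Cathepsins differed in both directions between MDSC and RB, 5 higher and 3 lower of 8. Ctsd, the main aspartic protease, had 12.39, 12.27 and 12.29 log2 on MDSC arrays against 11.30, 11.45 and 11.05 on RB arrays, a difference of 1.05 (SE 0.10, adjusted p = 4.35e-07). Ctsh, an aminopeptidase, went the other way with 9.47, 9.52 and 9.57 log2 on MDSC arrays against 10.65, 10.57 and 10.52 on RB arrays, and fell by 1.06 (SE 0.10, adjusted p = 2.06e-07). In neither gene did the groups overlap. Ctsl was higher by 1.08, Ctsz by 0.36 and Ctsb by 0.26 log2, while Ctss fell by 0.35 and the carboxypeptidase Ctsa by 0.26. Among hydrolases, Tpp1 was higher by 1.13, Neu1 by 0.76, Gusb by 0.64 and Lipa by 0.59 log2, Man2b1 fell by 1.11 and Psap by 0.32, and Gla (0.01) and Hexa (-0.04) did not pass. Of the membrane proteins, Mcoln1 was higher by 0.35 log2 and Cd63 by 4.79, and Lamp1 (-0.05), Lamp2 (-0.17) and Cd68 (0.12) did not pass. Some of the smaller calls were lost without a single array. Ctsa was lost without any one of the 3 MDSC arrays or RB replicate 2 (adjusted p 0.0515 to 0.0712). Ctsb was lost without any one of the 3 MDSC arrays or RB replicate 1 or 2 (0.0542 to 0.173). Ctsz was lost without MDSC replicate 3 or RB replicate 1 or 3 (0.0507 to 0.0907), and Mcoln1 without MDSC replicate 1 (0.067) or RB replicate 2 (0.0969).

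The most one-sided contrast was that of both cultured populations, MDSC against GFE. The 2 groups differed in the labelled cell type (Ly6C+CD11b+ against Lin-CD11b+CD34+ before culture), medium, tissue of origin and title prefix. G-CSF was in the culture for MDSC and given to the donor mouse for GFE. Here 35 of the 39 genes were higher in MDSC (89.7%), 0 were lower, and 4 did not pass, while 35.5% of all genes tested passed, 16.6% higher and 18.9% lower. The median difference was 1.14 log2 over the 39 genes and -0.0035 over all genes. All 8 cathepsins (median 1.48), all 8 hydrolases (median 1.39) and 13 of the 15 pump genes (median 0.65) were higher. Ctsb had 11.94, 11.88 and 12.05 log2 on MDSC arrays against 9.66, 9.80 and 9.89 on GFE arrays, a difference of 2.17 (SE 0.10, adjusted p = 1.18e-10). Psap had 12.31, 12.32 and 12.37 log2 on MDSC arrays against 10.20, 10.26 and 10.24 on GFE arrays, a difference of 2.10 (SE 0.09, adjusted p = 4.26e-11). Both genes were separated by many times the spread of their arrays. Atp6v1f (-0.06), Atp6v1h (0.30), Lamp2 (0.23) and Cd63 (0.25) did not pass. The 35 calls held under each of the 14 alternatives run, those that leave out an array included.

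Markers of other cells moved with these MDSC comparisons, and their part in the results was not tested. All 4 primary granule genes, Mpo, Elane, Prtn3 and Ctsg, were higher in MDSC than in GFW, RB and GFE. The level of a marker list is given as the median of its genes on each array. For these 4 genes it lay between 11.26 and 11.44 log2 on MDSC arrays and 7.01 and 7.48 on RB arrays. On GFE arrays it lay between 6.87 and 7.04, and on GFW arrays between 7.14 and 7.77. Of 11 macrophage markers, 2 were higher and 7 lower in MDSC than in GFW, with Mrc1, the mannose receptor, higher by 3.60 log2 and the adhesion molecule Vcam1 lower at -2.62. Their median level lay between 6.31 and 6.63 log2 on MDSC arrays, against 7.38 and 7.75 on GFW arrays. Of the 10 neutrophil markers, 3 were higher and 6 lower in MDSC than in GFW. Against RB, 8 of 10 monocyte markers were lower in MDSC and 0 higher. Their median level lay between 7.90 and 8.09 log2 on MDSC arrays, against 10.97 and 11.15 on RB arrays. Of the macrophage markers 8 were lower in MDSC than in RB and 1 higher, of the neutrophil markers 3 lower and 6 higher, and of 8 progenitor markers 2 lower and 5 higher. Against GFE, 9 of 10 neutrophil markers were higher in MDSC and 0 lower. Their median level lay between 10.16 and 10.29 log2 on MDSC arrays, against 5.46 and 5.83 on GFE arrays. All 8 progenitor markers were lower in MDSC than in GFE. Their median level lay between 6.35 and 6.73 log2 on MDSC arrays, against 9.62 and 9.80 on GFE arrays. Of the monocyte markers 7 were higher in MDSC than in GFE and 2 lower, and of the macrophage markers 5 higher and 1 lower. Of 7 osteoclast and giant cell genes tested, 2 were higher and 3 lower in MDSC than in GFW, with Itgb3, an integrin of osteoclasts, higher by 1.34, and the protease gene Mmp9 at -6.22 and the osteoclast regulator Nfatc1 at -1.41 log2.

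Other lysosomal genes, outside the 39, differed in both directions. Of all genes tested, 32.3% were higher and 30.0% lower in MDSC than in GFW. The shares were 16.6% and 18.9% against GFE, and 27.4% and 20.7% against RB. The 7 other pump subunits tested were counted with Clcn7, which exchanges chloride for protons in the lysosomal membrane, and its partner Ostm1. Of these 9 genes, 2 were higher and 3 lower in MDSC than in GFW. Clcn7 was higher by 1.50 log2 and Tcirg1, the pump's a3 subunit of osteoclasts, by 0.58, while the subunit Atp6v1e2 was at -0.52. Of 25 other hydrolases and cofactors, 10 were higher and 8 lower, and of 20 other membrane and sorting genes 10 were higher and 8 lower, with the metal transporter Slc11a1 at -3.14 and the cholesterol exporter Npc1 at 1.69 log2. Of 11 other proteases, 6 were higher and 2 lower, led by the granule protease Ctsg at 4.21 and the aspartic protease Ctse at -3.64. Of 6 cathepsin inhibitors, 2 were higher and 1 lower, with a median of -0.05 log2: Cst7, cystatin F, was higher by 3.73, the cystatin Cstb by 1.44, and the stefin Stfa2 was at -1.08 log2. Against GFE, 14 of the 25 other hydrolases and 13 of the 20 other membrane genes were higher in MDSC, and 2 and 3 lower. The other proteases were split against GFE, 5 higher and 4 lower of 11 with a median of -0.33 log2, led by the dipeptidyl peptidases Ctsc at 2.55 and Dpp7 at 2.46. Of the 9 pump and exchanger genes 3 were higher in MDSC than in GFE and 0 lower, with a median of 0.02: Clcn7 (1.31), Tcirg1 (0.89) and Ostm1 (0.79). Against RB, 6 of these hydrolases were higher and 10 lower, with the sulfatase Ids at -2.26 log2, the other proteases were 2 higher and 5 lower, and the membrane genes 5 higher and 5 lower.

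The 2 sets of fresh wild-type cells, RB and GFW, differed in both directions over the list. Of the 39 genes, 12 were higher in RB, 13 lower and 14 did not pass, while 52.4% of all genes tested passed, 25.8% higher and 26.5% lower. That is 30.8% of the list higher and 33.3% lower. The pump leaned to lower levels in RB, with 9 of 15 genes lower, 0 higher and a median of -0.34 log2. The hydrolases leaned the other way, with 5 of 8 genes higher, 0 lower and a median of 0.64. Cathepsins and membrane proteins went both ways, with 3 higher and 2 lower of 8 and 3 higher and 2 lower of 6. The difference between roles was not tested. The median over all genes was -0.06 log2.

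**Figure D3:**
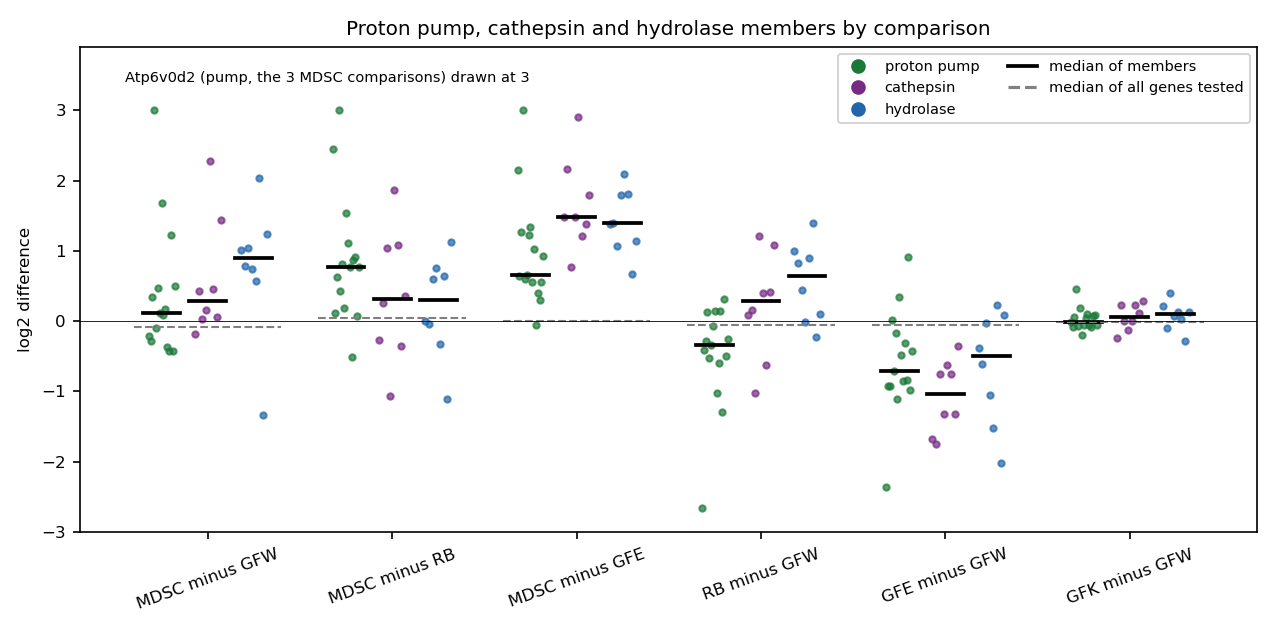
Each point is the log2 difference of a gene in 1 of 6 comparisons, coloured by role, with the median of the role in black and the median of all genes tested as a dashed line, and Atp6v0d2 drawn at 3 in the MDSC comparisons. In RB minus GFW the pump median is -0.34 and the hydrolase median 0.64, and in GFE minus GFW the 3 medians are -0.70, -1.04 and -0.49.

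Cd63 gave the largest difference between RB and GFW on the list. It had 6.86, 6.69 and 7.46 log2 on RB arrays against 10.69, 10.67 and 10.53 on GFW arrays, and fell by 3.63 log2 (SE 0.15, adjusted p = 4.18e-11), a 12.3-fold difference. The RB arrays were also far below those of MDSC (11.85, 11.84 and 11.69), GFE (11.44, 11.58 and 11.60) and GFK (10.59, 10.58 and 10.69). Atp6v0a1 was next, with 7.89, 8.13 and 7.58 log2 on RB arrays against 10.54, 10.57 and 10.46 on GFW arrays, and fell by 2.66 log2 (SE 0.13, adjusted p = 1.81e-10), a 6.32-fold difference. For both genes every RB array lay more than 1 log2 step below every GFW array. Of the other pump genes, Atp6v1g1 fell by 1.30, Atp6v1d by 1.02, Atp6v1e1 by 0.60, Atp6v0e by 0.52, Atp6ap1 by 0.50, Atp6v0b by 0.41, Atp6v1a by 0.34 and Atp6v0d1 by 0.29 log2. Atp6v1b2, Atp6v1c1, Atp6v1f, Atp6v1h and Atp6ap2 lay between -0.26 and 0.31 and did not pass, nor did Atp6v0d2, with both groups under the 40th percentile. Atp6v0d1 was lost without RB replicate 3 (adjusted p = 0.0673) or GFW replicate 2 (0.0898), with a range of 0.00458 to 0.0917 over all alternatives. Atp6v1h passed as higher without RB replicate 2, RB replicate 3 or GFW replicate 3 (adjusted p 0.0406 to 0.0485, with a range of 0.0369 to 0.332 over all alternatives).

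Of the cathepsins, Ctsh, Ctsz and Ctss were higher in RB and Ctsd and Ctsl lower. Ctsh had 10.65, 10.57 and 10.52 log2 on RB arrays against 9.38, 9.38 and 9.34 on GFW arrays, a difference of 1.22 (SE 0.10, adjusted p = 6.39e-08). Ctsd had 11.30, 11.45 and 11.05 log2 on RB arrays against 12.26, 12.28 and 12.31 on GFW arrays, and fell by 1.02 (SE 0.10, adjusted p = 8.56e-07). The groups did not overlap for either protease. Ctsz was higher by 1.08 and Ctss by 0.41 log2, Ctsl fell by 0.63, and Ctsa (0.08), Ctsb (0.16) and Ctsk (at least 0.41) did not pass. Without RB replicate 1 Ctsk passed as higher (at least 0.65 log2, adjusted p = 0.0143, with a range of 0.0143 to 0.691 over all alternatives).

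Gusb led the hydrolases in RB against GFW with a difference of 1.40 log2 (SE 0.16, adjusted p = 2.91e-06), its RB values being 9.51, 9.86 and 9.64 log2. Gla was higher by 1.0, Psap by 0.90, Hexa by 0.83 and Lipa by 0.45, and Neu1 (-0.01), Tpp1 (0.11) and Man2b1 (-0.23) did not pass. Of the membrane proteins, Gpnmb was higher by at least 2.27-fold (1.18 log2, SE 0.32, adjusted p = 0.00545), Lamp1 by 0.83 and Cd68 by 0.24 log2, and Lamp2 fell by 0.33. Cd68 was lost without RB replicate 1 or 2 or any one of the 3 GFW arrays (adjusted p 0.0592 to 0.0865, with a range of 0.00124 to 0.125 over all alternatives). Mcoln1 passed as higher without RB replicate 2 (0.35 log2, adjusted p = 0.0203, with a range of 0.0203 to 0.446).

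Markers of cell types differed between RB and GFW as well, and their part in these differences was not tested. Of 10 monocyte markers, 9 were higher and 0 lower in RB. Their median level lay between 10.97 and 11.15 log2 on RB arrays, against 7.44 and 7.67 on GFW arrays. Of 10 neutrophil markers, 1 was higher and 8 were lower. Their median level lay between 8.44 and 8.70 log2 on RB arrays, against 12.17 and 12.22 on GFW arrays. Of 8 progenitor markers, 0 were higher and 6 lower in RB, with a median difference of -0.76 log2. Among them Kit, the SCF receptor, averaged 5.52 log2 on RB arrays and 11.43 on GFW arrays. Outside the list, 2 of the 9 pump and exchanger genes were higher in RB, Clcn7 by 1.37 and Tcirg1 by 0.93 log2, and 1 was lower, Atp6v1e2 at -0.61. Of all genes tested, 25.8% were higher and 26.5% lower in RB. The other membrane genes were 8 higher and 8 lower of 20. Of 25 other hydrolases and cofactors, 14 were higher and 6 lower, and of 11 other proteases 6 were higher and 1 lower, led by the carboxypeptidase Scpep1 at 2.94 and the asparaginyl endopeptidase Lgmn at 2.09 log2. Of 6 cathepsin inhibitors, 0 were higher and 4 lower, with the stefin Stfa1 at -6.45 log2.

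Culture in SCF and Flt3 ligand went with lower levels over most of the list. In GFE against GFW, arrays with the same title prefix, 27 of the 39 genes were lower (69.2%), 3 were higher (7.69%) and 9 did not pass, while 67.0% of all genes tested passed, 35.1% higher and 31.9% lower. When each array was set relative to its own median, the share of higher genes among all that passed was 63.8%, against 52.3% otherwise. The median was -0.63 log2 over the 39 genes and -0.06 over all genes, which became 0.07 over all genes relative to the array medians. All 8 cathepsins passed as lower (median -1.04), Ctsk with both groups under the 40th percentile, as were 10 of the 15 pump genes (median -0.70) and 5 of the 8 hydrolases (median -0.49).

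Ctsb had 9.66, 9.80 and 9.89 log2 on GFE arrays against 11.46, 11.54 and 11.59 on GFW arrays, and fell by 1.74 (SE 0.10, adjusted p = 5.93e-10), a 3.35-fold difference. Ctsa, which also protects the sialidase and beta-galactosidase, had 9.52, 9.72 and 9.60 log2 on GFE arrays against 11.22, 11.34 and 11.29 on GFW arrays, and fell by 1.67 (SE 0.09, adjusted p = 2.23e-10). Both proteases were low on every GFE array. Ctsh and Ctss each fell by 1.32, Ctsl by 0.75, Ctsd by 0.74 and Ctsz by 0.35 log2. Ctsk was lost without GFW replicate 2 (adjusted p = 0.0659, with a range of 0.00154 to 0.083 over all alternatives) and Ctsz without GFW replicate 1 (0.0571) or 3 (0.0517, with a range of 0.00437 to 0.16).

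Man2b1 was the hydrolase that differed most between GFE and GFW. It had 9.09, 9.02 and 8.95 log2 on GFE arrays against 11.05, 11.02 and 11.01 on GFW arrays, and fell by 2.01 (SE 0.10, adjusted p = 7.44e-11), a 4.03-fold difference. Psap had 10.20, 10.26 and 10.24 log2 on GFE arrays against 11.76, 11.78 and 11.74 on GFW arrays, and fell by 1.53 (SE 0.09, adjusted p = 6.87e-10). The arrays of each group lay close together in both genes. Neu1 fell by 1.05, Hexa by 0.61 and Gla by 0.38 log2, and Gusb (0.23), Lipa (-0.02) and Tpp1 (0.09) did not pass. Gla was lost without GFW replicate 1 (-0.25 log2, adjusted p = 0.0952, with a range of 0.000882 to 0.12 over all alternatives).

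Atp6v0a1 was the pump gene that differed most between GFE and GFW, with 8.20, 8.14 and 8.16 log2 on GFE arrays, and fell by 2.36 (SE 0.13, adjusted p = 1.79e-10), a 5.13-fold difference. Atp6v1b2, the non-catalytic ATP-binding subunit, fell by 1.11, Atp6ap1 by 0.98, Atp6v0b by 0.93, Atp6v0d1 by 0.92, Atp6v1e1 by 0.85, Atp6v1g1 by 0.83, Atp6v0e by 0.70, Atp6v1d by 0.48 and Atp6ap2 by 0.43 log2. Against this direction, Atp6v1h was higher, with 8.93, 8.93 and 8.79 log2 on GFE arrays against 7.94, 7.87 and 8.09 on GFW arrays, a difference of 0.92 (SE 0.13, adjusted p = 9.33e-06). Atp6v1c1 was higher by 0.35 log2, a call lost without GFE replicate 1 (adjusted p = 0.058) or GFW replicate 2 (0.101, with a range of 0.00488 to 0.101 over all alternatives). Atp6v1a (-0.17) and Atp6v1f (-0.31) did not pass, nor did Atp6v0d2, with both groups under the 40th percentile. The membrane proteins were split: Cd63 was higher by 0.91 log2 (SE 0.15, adjusted p = 7.67e-05), Cd68 fell by 0.95, Lamp2 by 0.73 and Lamp1 by 0.26, and Mcoln1 (0.16) and Gpnmb (at least 0.50) did not pass. Lamp1 was lost without GFE replicate 1 (0.0701) or GFW replicate 1 (0.0622, with a range of 0.000444 to 0.267). Some genes passed only under another setting. With only the arrays compared, Gpnmb passed as higher (adjusted p = 0.00189) and Atp6v1f as lower (0.0428). Mcoln1 passed as higher with each array minus its median (0.0469), and Atp6v1a (0.0428) and Mitf (0.0233) as lower when quantile normalised again.

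**Figure D4:**
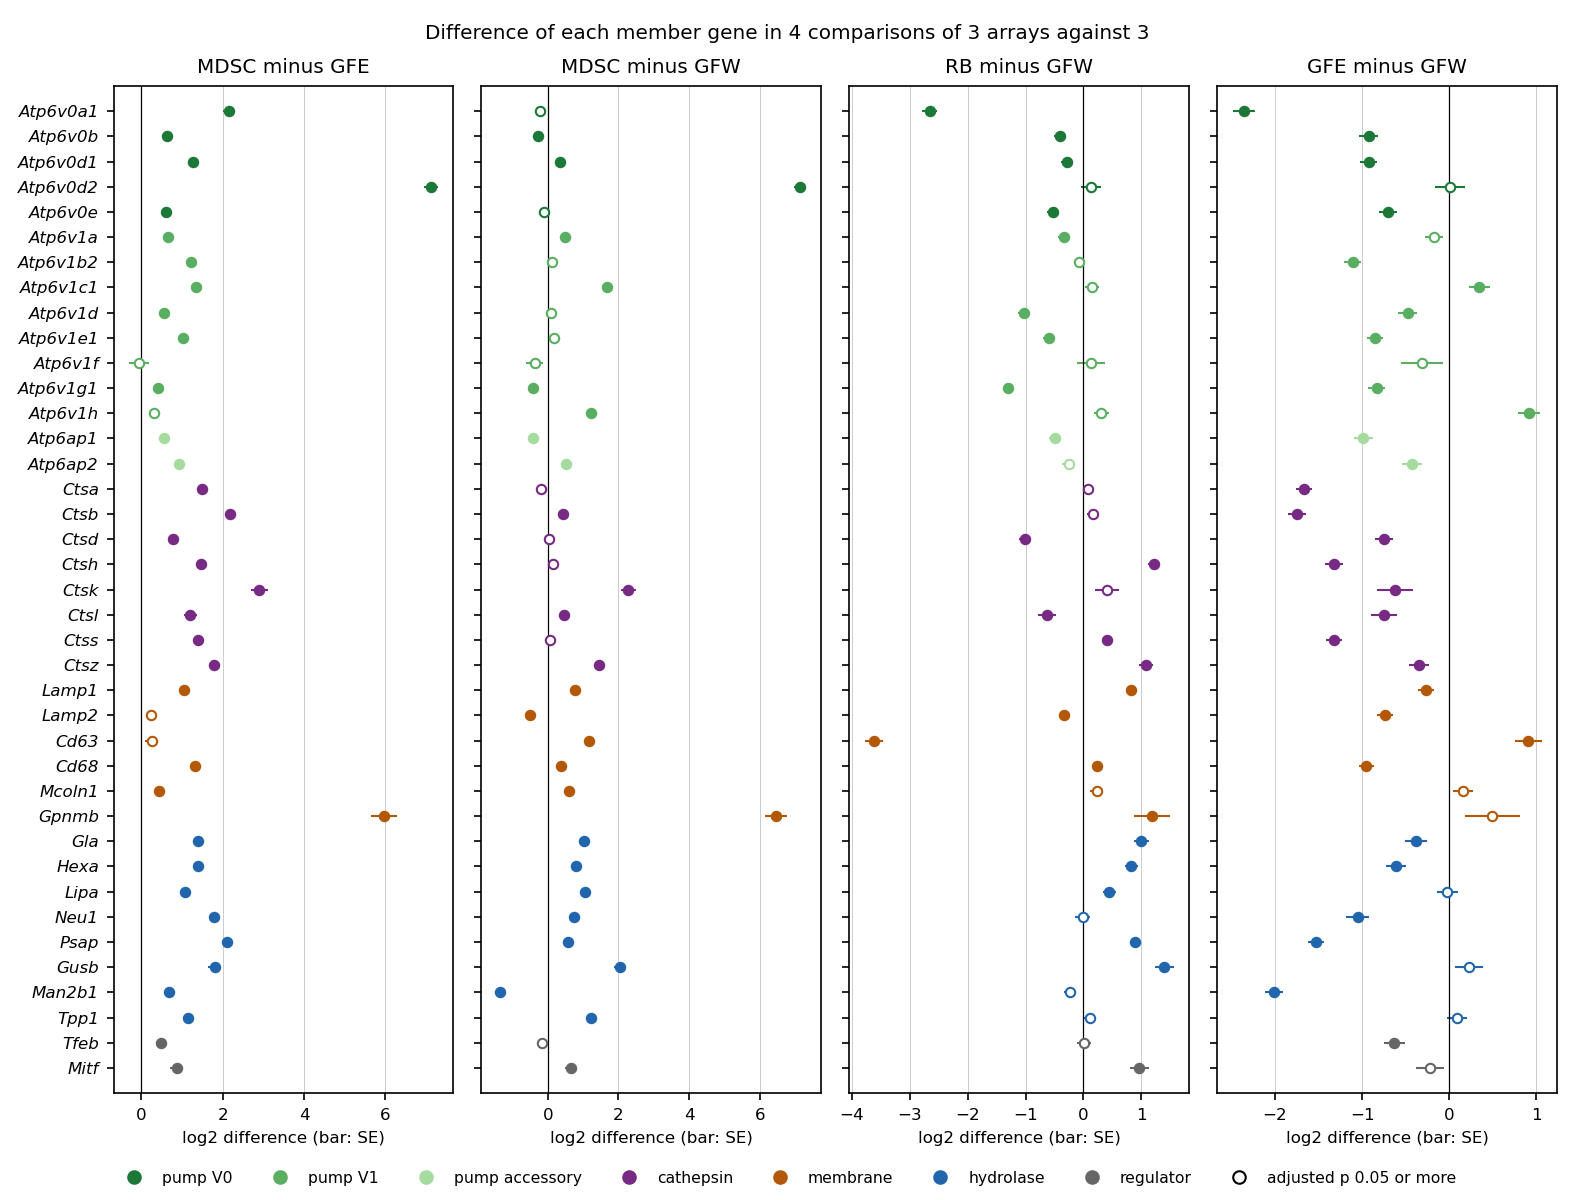
Points give the log2 difference of each of the 39 genes in 4 comparisons and bars its standard error, with open points for genes with an adjusted p of 0.05 or more. In MDSC minus GFE 38 genes lie to the right, 35 of them with filled points. In GFE minus GFW 31 lie to the left, 27 of them with filled points. In RB minus GFW the pump genes lie mainly to the left and the hydrolases mainly to the right.

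Neutrophil, monocyte and macrophage markers were lower in GFE as well, and progenitor markers higher, and their part in the lysosomal result was not tested. All 10 neutrophil markers were lower in GFE than in GFW. Their median level lay between 5.46 and 5.83 log2 on GFE arrays, against 12.17 and 12.22 on GFW arrays. Of 11 macrophage markers 10 were lower and 1 higher, and of 10 monocyte markers 7 were lower and 2 higher. Of 8 progenitor markers 7 were higher and 1 lower. Their median level lay between 9.62 and 9.80 log2 on GFE arrays, against 6.69 and 6.86 on GFW arrays. Outside the list, 5 of the 9 pump and exchanger genes were lower in GFE and 0 higher. Of all genes tested, 31.9% were lower in GFE and 35.1% higher. Of 25 other hydrolases and cofactors 12 were lower and 5 higher, with the phospholipase Pla2g15 at -2.23, the glycosylasparaginase Aga at 2.03 and the GM2 activator Gm2a at -1.97 log2. The other proteases went less one way, 5 higher and 3 lower of 11, with Scpep1 at 3.20 and Ctsg at 2.72 log2. Slc11a1 at -3.80 and the cystine exporter Ctns at -2.64 log2 led the other membrane genes, of which 9 were lower and 9 higher of 20.

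The genes were also read by whether their promoter window held TCACGTGA, with no test. Of all genes tested, 35.1% were higher and 31.9% lower in GFE against GFW, and 16.6% and 18.9% in MDSC against GFE. The shares were 25.8% and 26.5% in RB against GFW, 32.3% and 30.0% in MDSC against GFW, and 27.4% and 20.7% in MDSC against RB. In GFE against GFW, 5 of the 7 genes with these letters were lower, with a median of -0.70 log2, and 18 of the 25 genes with a window but without the letters were lower, with a median of -0.62. In MDSC against GFE, 7 of 7 with the letters were higher (median 0.77 log2), and 22 of 25 without them (median 1.06). In RB against GFW, 1 of the 7 was higher and 4 were lower (median -0.29), and of the 25 without the letters 10 were higher and 8 lower (median 0.11). In MDSC against GFW, 4 of the 7 were higher and 0 lower (median 0.34), and of the 25 others 15 were higher and 4 lower (median 0.51). In MDSC against RB, 5 of the 7 were higher and 1 was lower (median 0.42), and of the 25 others 13 were higher and 3 lower (median 0.36).

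Between GFK, the arrays labelled iNOS knockout, and GFW, 0 of the 39 genes passed in either direction by limma, while 1.61% of all genes tested did, 1.3% higher and 0.317% lower. Fitted differences ran from -0.28 to 0.80 log2 with standard errors of 0.0885 to 0.316, and the smallest adjusted p was 0.12. At an unadjusted p under 0.05 there were 7 genes (11.8% of all genes tested reached it): Atp6v0d2, Ctsb, Ctsz, Gpnmb and Lipa with positive differences, and Ctsa and Man2b1 with negative ones. For Atp6v0d2 both groups were under the 40th percentile. The gene with the smallest adjusted p was Lipa, with 9.94, 9.88 and 10.15 log2 on GFK arrays against 9.52, 9.58 and 9.65 on GFW arrays, a difference of 0.41. All 3 GFK arrays were above the GFW arrays, and Lipa passed when the variance was modelled with a trend and robustly (adjusted p = 0.0392, with a range of 0.0392 to 0.321 over all alternatives). Gpnmb, with GFW under the 40th percentile, differed by at least 0.80 log2, with 1 GFK array at 6.97 and the others at 6.00 and 5.79. Median differences were -0.01 log2 for the pump, 0.07 for cathepsins and 0.10 for hydrolases, against -0.01 for all genes. Of the other lysosomal genes, Lgmn (0.64) and the phospholipase D family member Pld3 (0.61) were higher in GFK, and the sulfatase Arsb (-0.89) and Ctns (-0.60) lower. Of 11 macrophage markers 3 were higher in GFK and 0 lower, and of 6 B and plasma cell markers 3 were higher and 0 lower, and their part in these values was not tested.

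Tfeb and Mitf differed by at most 0.96 log2 in the 6 comparisons. Tfeb, a main activator of lysosomal genes, had 6.46, 6.13 and 6.09 log2 on MDSC arrays, 6.61, 6.30 and 6.25 on RB arrays, 5.82, 5.61 and 5.82 on GFE arrays, 6.37, 6.38 and 6.41 on GFK arrays, and 6.39, 6.30 and 6.45 on GFW arrays. It was lowest on the GFE arrays and overlapped among the other groups. It fell by 0.63 log2 in GFE against GFW (SE 0.12, adjusted p = 0.000336) and was higher by 0.48 in MDSC than in GFE (adjusted p = 0.00624), with 0.01 for RB and -0.15 for MDSC against GFW. Mitf had 8.40, 8.20 and 8.14 log2 on MDSC arrays, 8.72, 8.33 and 8.64 on RB arrays, 7.07, 7.70 and 7.37 on GFE arrays, 7.93, 7.69 and 7.79 on GFK arrays, and 7.86, 7.58 and 7.37 on GFW arrays. It was highest on RB and MDSC arrays, which overlapped. Mitf was higher in RB than in GFW by 0.96 log2 (SE 0.16, adjusted p = 0.000168), in MDSC than in GFW by 0.64 (adjusted p = 0.00315) and in MDSC than in GFE by 0.87 (adjusted p = 0.000565). The call for MDSC against GFW was lost when the deposited values were quantile normalised again (0.38 log2, adjusted p = 0.0603, with a range of 0.00105 to 0.0603 over all alternatives).

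Tfec, another member of the MITF and TFE family that is found mainly in macrophages and that was not on the list of 39, had the largest difference of the other regulators in MDSC against GFW. It averaged 11.36 ± 0.11 log2 on MDSC arrays, 8.68 ± 0.22 on RB arrays, 9.73 ± 0.13 on GFE arrays, 6.75 ± 0.41 on GFK arrays and 6.23 ± 0.16 on GFW arrays (SD, n = 3 each). MDSC exceeded GFW by 5.14 log2 (adjusted p = 1.79e-12), RB by 2.68 and GFE by 1.64, and GFE exceeded GFW by 3.50. Of 14 other regulators tested, Tfec included, 7 were higher and 1 lower in MDSC than in GFW, with Fnip2 at 1.38 and Lamtor3 at 1.37 log2, both parts of nutrient signalling at the lysosome. In GFE against GFW 3 were higher and 5 lower, with the autophagy receptor Sqstm1 at 1.53 log2. Mcoln1, a known target of TFEB, had 9.13, 9.04 and 9.0 log2 on MDSC arrays, 8.78, 8.47 and 8.85 on RB arrays, 8.62, 8.68 and 8.59 on GFE arrays, 8.09, 8.30 and 8.34 on GFK arrays, and 8.60, 8.38 and 8.43 on GFW arrays. It was highest on MDSC arrays, by 0.59 log2 against GFW (SE 0.12, adjusted p = 0.000376) and 0.42 against GFE (adjusted p = 0.0083).

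For 2 of the pump genes more than 1 probe set carried the symbol alone. The 3 probe sets of Atp6v1g1 gave the same directions in all 6 comparisons, for instance -1.30, -1.11 and -1.24 log2 in RB against GFW. The 2 probe sets of Atp6v1b2 gave -1.11 and -1.20 log2 in GFE against GFW, but opposite signs near 0 in MDSC against GFW (0.12 and -0.08) and in MDSC against RB (0.19 and -0.03).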

How the data were processed

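Gene expression of 15 samples was measured on single-colour Affymetrix arrays, with biotin-labelled cRNA from 6 ug of total RNA per the labels' protocols. The authors deposited log2 values made with RMA in oligo, per the submitters' processing notes. RMA gives all arrays nearly the same distribution, so a shift of most genes at once would be reduced. The sources used here state no version of either. Values ran from 2.21 to 14.07 log2 over 41345 probe sets, of which 23521 carried 1 gene symbol, 1814 several and 16010 none.

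Genes were kept if above the 40th percentile of an array's single-symbol probe sets (5.34 to 5.58 log2) on at least 3 arrays, which left 14822 of 22180. All 39 members passed: Atp6v0d2 on 3 arrays, Ctsk on 8, Gpnmb on 12 and the others on 15. One linear model over the 15 arrays, with a term for each group, was fitted by limma 3.58.1 (R 4.3.3), with 10 degrees of freedom left and 5.33 from the prior. P-values, 2-sided, were adjusted over the 14822 genes by Benjamini-Hochberg, and genes were called under 0.05. The fit was also run on simulated data with independent noise and few changed genes, unlike most of these comparisons, and no conclusion is drawn from it. The number of arrays limits the precision. Other settings were 2 normalisations, 2 filters, the mean of probe sets, a trended robust variance, only the arrays compared, a replicate block and leaving out each array. Members, lists and named genes (every member, and per other list and comparison at most 3 called genes with the largest difference) were chosen with earlier results of these data known. Same-numbered arrays correlated at 0.043 or less in their deviations from the group means. Python 3.11.15, numpy 2.4.6, pandas 2.3.3 and matplotlib 3.10.9 were used.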

Additional observations from a re-analysis of the deposited data

How the results depend on the processing

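Under the 14 alternatives run for each comparison, 0 of the called genes of the list turned direction. The calls kept under all of them were 25 of 28 in MDSC minus GFW, 23 of 28 in MDSC minus RB, 35 of 35 in MDSC minus GFE, 21 of 25 in RB minus GFW and 24 of 30 in GFE minus GFW. With each array minus its median, the list genes lower in MDSC than in RB numbered 3, against 5. Without single arrays, list genes called higher and lower numbered 22 to 23 and 4 to 5 in MDSC minus GFW, 21 to 22 and 4 to 5 in MDSC minus RB, 35 and 0 in MDSC minus GFE, 11 to 13 and 12 to 13 in RB minus GFW, and 2 to 3 and 24 to 27 in GFE minus GFW. Calls ended by another setting but by no left-out array were Psap in MDSC minus RB (adjusted p = 0.0508) and Atp6ap2 in GFE minus GFW (0.0551) with each array minus its median, and Atp6v1a (0.0637) and Lamp2 (0.054) in RB minus GFW with only the arrays compared, beside Mitf as reported above. In GFK minus GFW a trended robust variance called 1 list gene, Lipa, against 0.

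Counts over all genes in GFK minus GFW were the least stable, and the cause was not tested beyond the smaller number of arrays in some fits. Genes higher numbered 192, 72 with only the arrays compared and 102 to 150 without single arrays (102 without GFK replicate 3, 123 without GFW replicate 3). Genes lower numbered 47, 29 with each array minus its median, 30 with no filter, 79 with a trended robust variance, 2 with only the arrays compared and 27 to 42 without single arrays (28, 27 and 31 without GFK replicate 1, 2 and 3, 30 and 27 without GFW replicate 2 and 3).

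Arrays with the same replicate number in their titles correlated only at -0.091 to 0.043 in their deviations from the group means. In RB minus GFW and GFK minus GFW each array correlated best with its own number. With the replicate block, list genes called higher and lower numbered 23 and 5 in MDSC minus GFW, 23 and 5 in MDSC minus RB, 35 and 0 in MDSC minus GFE, 12 and 13 in RB minus GFW, 3 and 27 in GFE minus GFW, and 0 and 0 in GFK minus GFW, as without it. In RB minus GFW the block lost Cd68 (adjusted p = 0.0513) and added Atp6v1h (0.0488). Genes called in GFK minus GFW numbered 160 higher and 42 lower with the block. Signal over background is not given in the values, so genes low on all groups but one, such as Atp6v0d2, have only bounds.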

Other observations

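The promoter windows of Ctsk and Ctss start 27576 bases apart on chromosome 3, so both cathepsin genes are neighbours. In MDSC against GFW, Ctsk was higher by at least 2.28 log2, with GFW under the 40th percentile, while Ctss (0.06) did not pass. In GFE against GFW, Ctss fell by 1.32 and Ctsk had both groups under the 40th percentile.

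Inhibitors of cysteine cathepsins differed widely between some of the groups. Of 6 tested, 6 were higher in MDSC than in GFE and 5 higher and 1 lower in MDSC than in RB. In GFE against GFW 1 was higher and 4 were lower. In MDSC against GFW 2 were higher and 1 was lower, not above the shares of all genes tested, 32.3% higher and 30.0% lower. Those shares were 16.6% and 18.9% in MDSC against GFE, 27.4% and 20.7% in MDSC against RB, and 35.1% and 31.9% in GFE against GFW. The stefin Stfa1 averaged 12.61 ± 0.15 log2 on MDSC arrays, 6.08 ± 0.69 on RB arrays, 4.82 ± 0.40 on GFE arrays, 12.35 ± 0.18 on GFK arrays and 12.52 ± 0.04 on GFW arrays (SD, n = 3 each). Stfa1, Stfa2 and Stfa3 are near-identical copies, so their probe sets may read each other's RNA. Cst7, known to inhibit cathepsin C, averaged 10.62 ± 0.10 log2 on MDSC arrays, 6.42 ± 0.40 on RB arrays, 8.54 ± 0.13 on GFE arrays, 6.90 ± 0.32 on GFK arrays and 6.89 ± 0.17 on GFW arrays.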
